A study of Mus musculus with 13 samples.

Results

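10 genes that encode precursors of neuropeptides, *Tac1*, *Cartpt*, *Sct*, *Nts*, *Npy*, *Gal*, *Vip*, *Calca*, *Calcb* and *Adcyap1*, were followed in single sensory neurons of mouse dorsal root ganglia (DRG), labelled as proprioceptors by their reporter. They were chosen by name, and are 10 of the 50508 genes listed in the count files, of which 30658 had at least 1 unique molecular identifier (UMI, the tag that lets copies of 1 captured mRNA be counted once). The neurons were sorted for the red reporter tdTomato into plates and each well was sequenced as 1 cell. The postnatal neurons carried PV:Cre+/-;Rx3:Flp+/-;Ai65+/- (called PVRx3:tdT), in which tdTomato stays on in any cell that at some time expressed both Parvalbumin and Runx3. There were 5 plates from adult mice older than postnatal day (p) 56, 4 plates from p12 and 2 plates from p0. The other 2 plates, from e14.5 embryos, used TrkC:tdTomato, a reporter of the neurotrophin 3 receptor TrkC, so a difference between e14.5 and p0 can belong to the stage or to the reporter, and these cannot be told apart. All stages used animals of either sex, and the labels do not tie a plate to an animal. PVRx3:tdT is also known to mark a few skin afferents, those of Merkel cells and of the nail. TrkC:tdTomato also marks neurons that are not proprioceptors, and the study takes e14.5 clusters 3 and 4 as likely such cells. It describes the adult neurons left without a numbered cluster as other neuron classes or as very small clusters.

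A neuropeptide is cut from a longer precursor at pairs of basic residues, is often closed by an amide at its C-terminus, and is stored in dense-core vesicles that are released by sustained or rapid firing. In the DRG these peptides are known best from small neurons that sense pain, itch and temperature, where substance P and CGRP mark the peptidergic class, and from injured neurons, in which galanin, neuropeptide Y and VIP are induced. Proprioceptors, the large neurons that report muscle length and force, are not a classical source of them.

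The stretches of DNA that code for the peptides named most often below are shown 5′ to 3′ on the coding strand, because they tell what each counted gene can make. Capitals mark the codons of the basic residues at which the precursor is cut and of the glycine that becomes the amide, and lower case marks the peptide itself. They were read from the mouse genome GRCm38 at chr6:7556729-7556773 on the plus strand (exon 3 of *Tac1*), chr19:3411592-3413340 on the minus strand (exons 3 and 4 of *Gal*, with the intron removed), chr7:141278835-141278927 on the minus strand (exon 2 of *Sct*), chr10:102482349-102482399 on the minus strand (exon 4 of *Nts*) and chr17:93203984-93204112 on the plus strand (exon 5 of *Adcyap1*). They are shown because the results below turn on these genes.
substance P (Tac1): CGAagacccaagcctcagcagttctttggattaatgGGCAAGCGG
galanin (Gal): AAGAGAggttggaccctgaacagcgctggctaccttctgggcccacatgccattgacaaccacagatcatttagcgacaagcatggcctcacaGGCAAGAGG
secretin (Sct): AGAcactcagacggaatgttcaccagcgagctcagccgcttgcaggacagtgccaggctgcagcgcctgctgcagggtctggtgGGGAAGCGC
neurotensin (Nts): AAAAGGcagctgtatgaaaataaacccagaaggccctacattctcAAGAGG
PACAP-38 (Adcyap1): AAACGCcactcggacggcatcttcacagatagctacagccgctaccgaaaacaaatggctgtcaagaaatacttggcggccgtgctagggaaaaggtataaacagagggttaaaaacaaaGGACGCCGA
Neurotensin is the only one of these 5 with no glycine codon ahead of its last cleavage site, and keeps a free acid at its end. *Tac1* also encodes neurokinin A, in exons 5 and 6 at chr6:7557740-7559139, so its count stands for both peptides.

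The stretches that code for the 2 CGRP peptides are shown as a pair, because the genes are nearly identical there. *Calca* (chr7:114632461-114632586, minus strand, exon 4) and *Calcb* (chr7:114721988-114722113, plus strand, exon 5) are near neighbours on chromosome 7, and capitals mark the bases that differ.
Calca: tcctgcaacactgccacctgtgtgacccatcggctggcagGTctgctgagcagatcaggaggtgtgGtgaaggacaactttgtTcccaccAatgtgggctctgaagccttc
Calcb: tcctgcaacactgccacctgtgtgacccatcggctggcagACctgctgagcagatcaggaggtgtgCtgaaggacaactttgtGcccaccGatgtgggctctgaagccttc
They differ at 5 of 111 bases (95.5% identical), which changes 3 of 37 residues. The longest run without a difference is 40 bases, and of all stretches of 31 bases in the transcripts of both genes 33 are shared, 2.02% of those of *Calca* and 3.18% of those of *Calcb*. *Calca* also encodes calcitonin through another 3′ exon, which a count per gene does not separate, and how reads that match both genes were counted is not given in the sources used here, so levels of *Calca* are uncertain where *Calcb* is high, and the reverse.

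Of 1248 wells, the study's annotation kept 586 as single neurons: 169 of e14.5, 55 of p0, 154 of p12 and 208 adult. The kept neurons of a plate summed to between 680212 and 2387288 UMIs, and the median neuron held 10604 UMIs at e14.5, 41058 at p0, 24462.5 at p12 and 36926.5 in the adult. Detection of a low gene depends on that depth, so shares over a stage are also given after every neuron was thinned to 7000 UMIs for the genes found in many neurons, which left out 18 e14.5 and 2 p12 neurons. All plates used the same 96 well barcodes. Levels are CPM, the UMIs of a gene scaled to a fixed total of UMIs per neuron, averaged over the kept neurons of a plate, which is the replicate. The study sampled its adult neurons in 3 experiments, and which plates share one is not given in the sources used here, so the 5 adult plates may not be independent. *Pvalb*, the gene for Parvalbumin, had a UMI in every kept postnatal neuron. Differences between stages were tested with edgeR on UMIs summed per plate, over 11939 genes that passed the filter on low counts. Of the 10 genes 7 passed it, and *Npy*, *Vip* and *Calca* did not. Because animals are not named, the p-values measure the spread between plates only, and a summed level cannot tell fewer neurons with a gene from less mRNA in each.

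The genes fell into a group with high levels before or at birth (*Gal*, *Sct* and *Nts*), a group present in a share of the neurons at every stage (*Adcyap1*, *Tac1* and *Cartpt*), 1 gene with most of its UMIs in the adult (*Calcb*), and 3 genes that were sparse throughout (*Calca*, *Npy* and *Vip*). From p12 to adult, 3 of the 7 tested genes fell: *Adcyap1*, *Cartpt* and *Sct*. From p0 to p12, *Gal* and *Sct* fell, and from e14.5 to p0, *Nts* and *Gal* fell. No call was a rise. Among all genes tested, 6.56% fell and 7.57% rose from p12 to adult, 9.01% fell and 9.1% rose from p0 to p12, and 13.1% fell and 14.7% rose from e14.5 to p0. At an unadjusted p under 0.05 the number of these genes was 3, 3 and 4 in the same order, and DESeq2 called 3, 2 and 1. The shares of all tested genes under these other criteria are not given here.

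**Figure D1:**
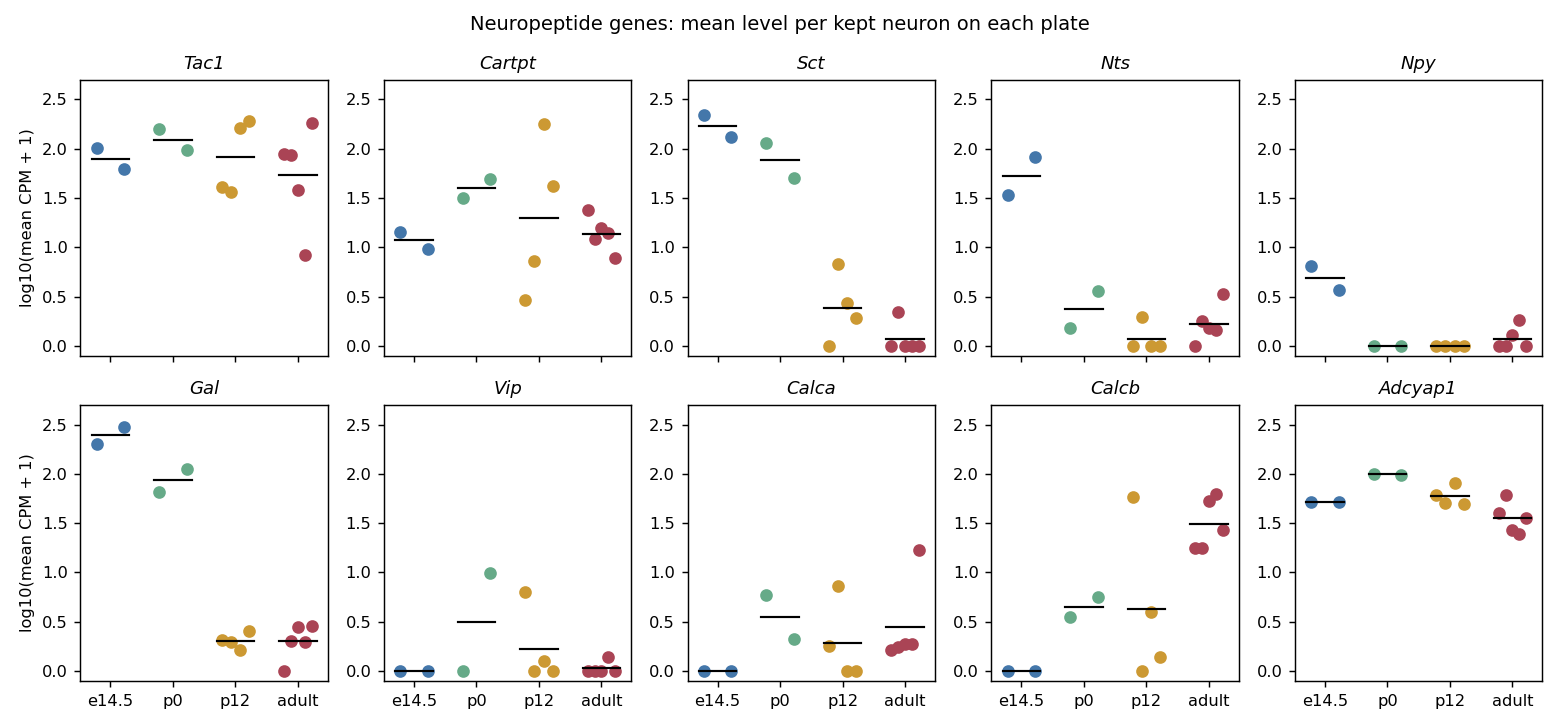
Level of each of the 10 genes by stage: each point is 1 plate, the vertical axis is log10 of the plate's mean CPM plus 1, and the black line is the mean of the plotted values. *Gal* and *Sct* sit high at e14.5 and p0 and near 0 from p12, *Nts* is high at e14.5, and *Calcb* is at 0 at e14.5 and between 16.6 and 61.8 CPM on the adult plates.

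*Gal* encodes galanin, a peptide that acts on receptors coupled mainly to inhibitory G proteins. Its mean level was 201 and 298 CPM on the e14.5 plates and 65.0 and 112 CPM on the p0 plates. It was 1.04, 0.955, 0.642 and 1.56 CPM on the p12 plates and 0, 0.995, 1.83, 0.992 and 1.83 CPM on the adult plates. All e14.5 and p0 plates thus stood far above the p12 and adult plates, which overlapped. *Gal* had a UMI in 57.8% ± 2.53 of e14.5 neurons (SD, n = 2 plates), 43.9% ± 2.76 at p0 (n = 2), 5.56% ± 2.85 at p12 (n = 4) and 5.62% ± 4.13 in the adult (n = 5). After thinning, 78 of 151, 11 of 55, 1 of 152 and 2 of 208 neurons had one. The fall from p0 to p12 was −6.17 ± 0.59 on the log2 scale (SE, edgeR, adjusted p = 1.16e-05), and as a ratio of summed UMIs p0 was 76.6-fold above p12 (95% counting interval 34.7 to 211). It was called in 14 of 14 alternatives, at −6.85 to −3.92. The smallest came with all wells of at least 2000 genes, and wells outside the annotation held 109 p12 *Gal* UMIs against 6 in kept neurons. It was −4.96 without p0 plate 2. The fall from e14.5 to p0 was −1.37 ± 0.46 (adjusted p = 0.0375), and this call was lost in 6 of 11 alternatives, among them without p0 plate 1 (−0.67, adjusted p = 0.306) and without either e14.5 plate (adjusted p = 0.0579 without plate 1 and 0.250 without plate 2). With e14.5 clusters 1 and 2 only it was −0.72 (adjusted p = 0.263), and cluster 3 held 50.8% of the e14.5 *Gal* UMIs. 1 p0 neuron held 83 of the 223 *Gal* UMIs of its stage (37.2%).

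*Sct* encodes secretin, known best as the gut hormone that makes the pancreas release bicarbonate. Its mean level was 219 and 132 CPM on the e14.5 plates, 113 and 49.8 CPM on the p0 plates, then 0, 5.84, 1.75 and 0.919 CPM at p12. On the adult plates it was 0, 1.23, 0, 0 and 0 CPM, from a single UMI. The e14.5 and p0 plates were above all p12 and adult plates, the p12 and adult plates overlapped, and the difference between e14.5 and p0 was not called (−1.11 ± 0.42, adjusted p = 0.0618), though 5 of 11 alternatives called it, thinned neurons among them. *Sct* had a UMI in 84 of 169 neurons at e14.5 (49.7%, 95% exact interval 41.9 to 57.5), in 28 of 55 at p0 (50.9%, 37.1 to 64.6), in 10 of 154 at p12 and in 1 of 208 in the adult. Thinned to 1 depth the p0 share was 18.2% against 45.0% at e14.5. The fall from p0 to p12 was −4.98 ± 0.50 (adjusted p = 1.51e-05, called in 14 of 14 alternatives), and summed UMIs were 38.6-fold higher at p0 (21.1 to 78.5). From p12 to adult the call (adjusted p = 0.0285) rested on 11 UMIs against 1, a ratio of 21.6 (3.14 to 930), and was kept in 10 of 19 alternatives (adjusted p up to 0.302). It was lost without adult plate 1, 3 or 4, without p12 plate 2 or 3, with thinned neurons, and with p12 plates 1 and 2, adult plates 1 and 2 or adult plates 3 to 5 only.

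*Nts* encodes neurotensin, a peptide of gut and brain. On the plates it averaged 32.9 and 82.1 CPM at e14.5 and 0.530 and 2.63 CPM at p0. It was 0, 0.965, 0 and 0 CPM at p12 and 0, 0.785, 0.507, 0.467 and 2.38 CPM in the adult. Only the e14.5 plates stood above 3 CPM, and beyond e14.5 no kept neuron held more than 1 *Nts* UMI. The share was 39 of 169 neurons at e14.5 (23.1%, 17.0 to 30.2), 3 of 55 at p0, 1 of 154 at p12 and 6 of 208 in the adult. The fall from e14.5 to p0 (adjusted p = 0.00059) corresponds to 90 UMIs against 3, a 36.3-fold ratio (12.0 to 180). It was called in 9 of 10 alternatives, and not with all wells of at least 2000 genes (adjusted p = 0.0738), and wells outside the annotation held 17 p0 UMIs.

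Within a stage these genes followed the study's clusters unevenly. The clusters were found in the same neurons with all genes, so these levels are a description with no test. At e14.5 *Gal* was highest in cluster 3, at 368 and 749 CPM on the plates, against 164 and 208 CPM in cluster 1 and 141 and 201 CPM in cluster 2. Cluster 3 was 34 of the 169 neurons. *Nts* went the other way. It had a UMI in 12 of 41 neurons of cluster 1 and 27 of 88 of cluster 2, and in 0 of 34 neurons of cluster 3. Taken to allow 3 counts, that 0 leaves room for 8.82% of neurons with a UMI at this depth, which is no limit on expression. *Sct* was spread over all 3, with 46.3% of cluster 1, 48.9% of cluster 2 and 64.7% of cluster 3. In the same cluster 3 the summed CPM of the 8 proprioceptor markers was 791, against 2040 and 2214 in clusters 1 and 2, and whether this bears on the peptide genes was not tested. At p0, *Sct* sat mainly in cluster 2, at 426 and 175 CPM and in 11 of 12 neurons, and 1 neuron held 91 of the 206 *Sct* UMIs of p0 (44.2%), whereas cluster 1 had 25.3 and 17.9 CPM and 15 of 35 neurons. *Gal* at p0 was in 17 of 35 neurons of cluster 1, which held 90.1% of its UMIs, 153 of 201 in 3 neurons, and in 5 of 12 neurons of cluster 2.

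The DNA ahead of *Gal* and *Sct* is shown because both genes fell from p0 to p12. Each run is the 250 bases ahead of the annotated start in GRCm38, chr19:3414545-3414794 for *Gal* and chr7:141279134-141279383 for *Sct*, both on the minus strand, from RefSeq, and capitals mark a TATAAA.
Gal: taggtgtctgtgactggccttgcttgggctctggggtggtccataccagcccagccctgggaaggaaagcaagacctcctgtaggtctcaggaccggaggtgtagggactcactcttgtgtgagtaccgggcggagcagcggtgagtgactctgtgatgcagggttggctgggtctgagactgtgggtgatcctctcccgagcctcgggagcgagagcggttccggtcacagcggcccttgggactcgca
Sct: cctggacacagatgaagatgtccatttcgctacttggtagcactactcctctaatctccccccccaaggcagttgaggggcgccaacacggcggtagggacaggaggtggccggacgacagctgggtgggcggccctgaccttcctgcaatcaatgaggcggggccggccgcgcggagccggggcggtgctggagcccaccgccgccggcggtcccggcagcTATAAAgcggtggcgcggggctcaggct
The windows held 62.4% and 68.0% G and C, with 11 and 22 CpGs, against a median of 52.4% G and C over 32851 windows. TATAAA on either strand was in the window of *Sct*, *Vip* and *Adcyap1* and in 12.4% of all windows of the same length. The cAMP response element TGACGTCA was in the window of *Cartpt* alone and in 1.55% of all, and its part TGACG, which the full element contains, was in 6 of the 9 genes that have a window and in 17.8% of all. The RUNX core TGTGGT was in none of the 9 and in 14.05% of all. *Calcb* had no window in the table.

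*Adcyap1* encodes PACAP, a peptide that raises cyclic AMP in its target cells. At full depth it was the most widely detected of the 10 at p0 and later, with a UMI in 49 of 55 neurons at p0 (89.1%, 77.8 to 95.9), 112 of 154 at p12 (72.7%, 65.0 to 79.6) and 104 of 208 in the adult (50.0%, 43.0 to 57.0). At e14.5 it was found in 64 of 169 (37.9%). Thinned to 1 depth the shares were 27.2% at e14.5, 43.6% at p0, 29.6% at p12 and 22.1% in the adult, below those of *Tac1* at p0 and p12. Its mean level was 50.4 and 51.3 CPM at e14.5 and 99.7 and 95.9 CPM at p0. It was 60.01, 49.3, 79.0 and 49.0 CPM at p12 and 38.9, 59.95, 25.8, 23.4 and 35.0 CPM in the adult. The p0 plates were above every other plate, and the p12 and adult plates overlapped at adult plate 2. The fall from p12 to adult was −0.87 ± 0.20 (edgeR, adjusted p = 0.00943), and was kept in 16 of 20 alternatives, but not with thinned neurons (adjusted p = 0.241), with p12 plates 1 and 2 only (0.124), with adult plates 1 and 2 only (0.0909) or without p12 plate 3 (0.0509). The fitted change was −0.68 from p0 to p12 (adjusted p = 0.0608) and 0.78 from e14.5 to p0 (adjusted p = 0.0533), both outside the threshold. No cluster lacked it: in the adult it was found in 35.3% to 61.9% of each, in 94.3% of p0 cluster 1, and no neuron held more than 27 UMIs.

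*Tac1* encodes the precursor of substance P and neurokinin A, the tachykinins of pain fibres. Its mean level was 100 and 61.2 CPM at e14.5 and 157 and 96.0 CPM at p0. It was 39.6, 35.1, 162 and 192 CPM at p12 and 87.0, 85.0, 37.6, 7.41 and 180 CPM in the adult. The e14.5 and p0 plates lay within the range of the adult plates, and none of the 3 contrasts was called (−0.85, −0.29 and 0.44 from the latest to the earliest, adjusted p = 0.437, 0.855 and 0.789). The fall from p12 to adult was called in 2 of 20 alternatives, without the filter on low counts (−0.88) and with all wells of at least 2000 genes (−1.20). *Tac1* had a UMI in 36.7%, 74.5%, 55.2% and 34.1% of the neurons from e14.5 to adult, and in 29.8%, 49.1%, 38.2% and 17.3% after thinning. Clusters of 1 stage differed widely. At p0, *Tac1* was at 175 and 130 CPM in cluster 1 (32 of 35 neurons) and at 11.4 and 10.4 CPM in cluster 2 (3 of 12). At p12 it was at 347 and 282 CPM in cluster 1 (49 of 63), at 81.9 and 15.7 CPM in cluster 4, and in 0 of 8 neurons of cluster 5. Among adult neurons it was at 167 and 200 CPM in cluster 4 (20 of 28), and in 9 of 51 neurons of cluster 1. The study's annotation also holds 42 adult neurons that passed quality control but carry no numbered cluster. They were excluded from its adult clusters, and *Tac1* was high in them too, at 214, 265, 139, 21.9 and 446 CPM on adult plates 1 to 5. They held 52.9% of the adult *Tac1* UMIs, and cluster 4 held 31.8%. Clusters 2 and 4 of the adult came from plates 1 and 2 only, and p12 clusters 1, 4 and 5 from p12 plates 3 and 4 only, so their levels rest on those plates alone. Within these plates the clusters still differed: on adult plates 1 and 2 *Tac1* was at 4.77 and 7.09 CPM in cluster 1 and at 0 and 15.8 CPM in cluster 2, against 167 and 200 CPM in cluster 4.

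**Figure D2:**
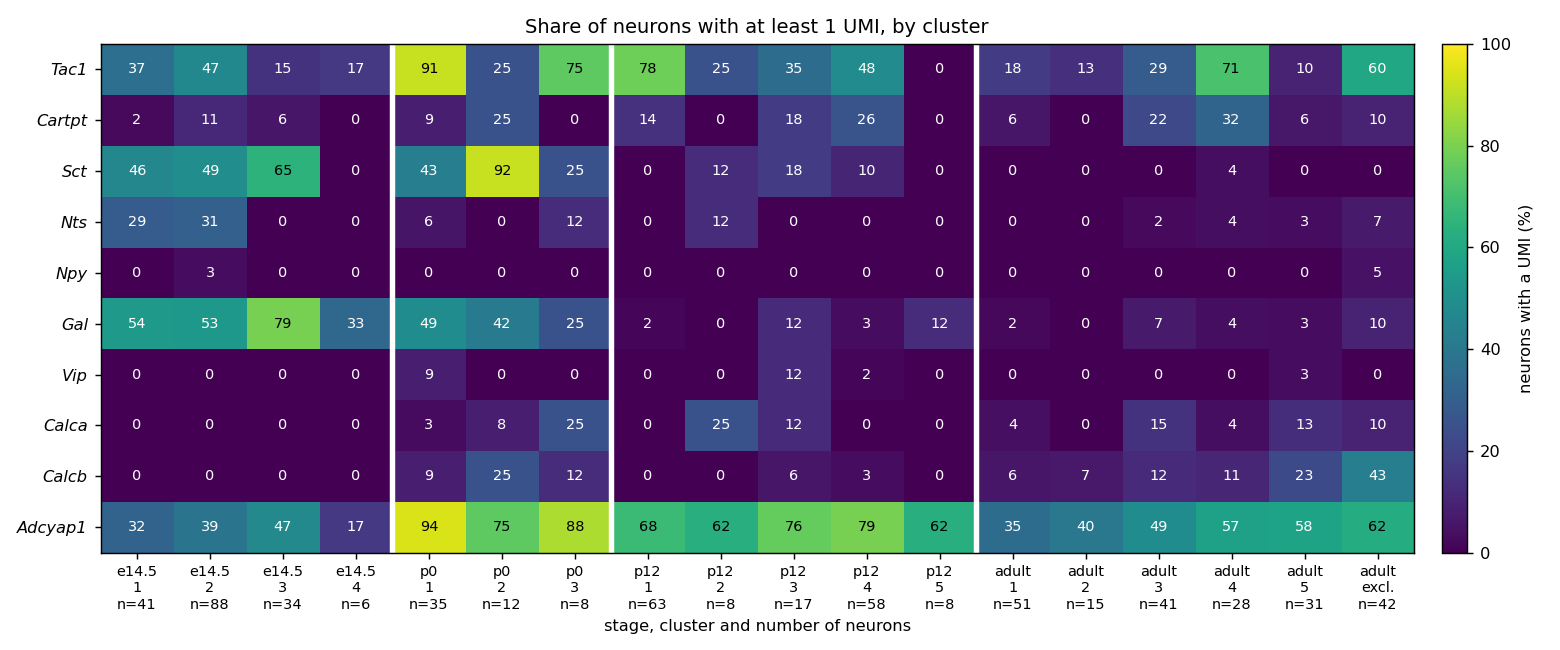
Percent of the neurons of each cluster (columns, by stage, with the number of neurons) in which each gene (rows) had at least 1 UMI. Brighter cells are higher and darker cells lower. *Tac1* is at 91.4% of p0 cluster 1, 77.8% of p12 cluster 1 and 71.4% of adult cluster 4, *Sct* at 91.7% of p0 cluster 2, *Gal* at 79.4% of e14.5 cluster 3 and *Calcb* at 42.9% of the excluded adult neurons.

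*Cartpt* encodes CART, a peptide named for its induction by cocaine and amphetamine. It was found in few neurons but reached high counts in some. Its mean level was 13.5 and 8.59 CPM at e14.5 and 30.97 and 47.9 CPM at p0. It was 1.93, 6.27, 176 and 40.9 CPM at p12 and 23.0, 11.2, 14.6, 12.9 and 6.79 CPM in the adult. The p12 plates spanned the whole range, and the adult plates lay within it. A UMI was found in 7.69%, 10.9%, 17.5% and 12.98% of the neurons from e14.5 to adult. The fall from p12 to adult was −2.90 ± 0.80 (edgeR, adjusted p = 0.0264), but p12 plate 3 decided it: without that plate it was −1.21 (adjusted p = 0.299). The call was kept in 13 of 20 alternatives, and was also lost without adult plate 2 or 3, with all wells of at least 2000 genes, and with p12 plates 1 and 2, adult plates 1 and 2 or adult plates 3 to 5 only. At p12, cluster 4 held 91.3% of the *Cartpt* UMIs, at 301 and 41.6 CPM on plates 3 and 4, and 1 of its neurons held 142 of the 426 UMIs of the stage. At p0, 1 neuron on each plate, both in cluster 2, held 51 and 78 of the 134 UMIs. In the adult, cluster 4 was at 59.0 and 65.7 CPM, with *Cartpt* in 9 of its 28 neurons and 48.8% of the adult UMIs. Cluster 3 had *Cartpt* in as many neurons, 9 of 41, but with 12 UMIs against 42 in cluster 4. Of the excluded adult neurons, 4 of 42 had it.

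*Calcb* encodes the beta form of CGRP, a vasodilator. It averaged 16.9, 16.6, 52.4, 61.8 and 25.7 CPM on the adult plates, 57.9, 0, 3.01 and 0.393 CPM at p12 and 2.57 and 4.69 CPM at p0. At e14.5 it had a UMI in 0 of 169 neurons, which allows up to 1.78% of neurons with a UMI at this depth and sets no limit on neurons that express the gene. 3 of the 4 p12 plates were below every adult plate, and p12 plate 1, where 1 neuron held 53 of the 61 p12 UMIs, was not. The fitted rise from p12 to adult, 1.49, did not pass the test (adjusted p = 0.270). Without p12 plate 1 it was 4.31 and passed (adjusted p = 0.00508), and it passed in 3 of 20 alternatives. In the adult, *Calcb* had a UMI in 37 of 208 neurons (17.8%, 12.8 to 23.7), and 18 of these were among the 42 excluded neurons, which held 375 of the 425 adult UMIs (88.2%). Their mean was 116, 69.7, 207, 236 and 32.2 CPM on plates 1 to 5. On plate 5 none of them held more than 2 UMIs, and the wells left out there held 487 *Calcb* UMIs, with 183 in 1 well. Whether UMIs passed between wells was not tested. In the numbered clusters it was highest in cluster 5, in 7 of 31 neurons. With the excluded neurons left out, the fitted adult change turned to −1.05 (adjusted p = 0.505).

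The excluded adult neurons with *Calcb* were compared with the others of that class on markers. *Pvalb* had a UMI in all 18 with *Calcb*, with a median of 1177 CPM, and in all 24 without, with a median of 2114 CPM. The nociceptor sodium channel gene *Scn10a* and the itch receptor gene *Mrgprd* were at 0 in all 42. The summed level of 14 nociceptor genes was 692 to 1980 CPM (median 1141) with *Calcb* and 658 to 1628 CPM (median 1089) without. Most of that sum was *Prph*, the gene for the intermediate filament protein peripherin, which was in every kept neuron and made 828 of 861 CPM over all adult neurons. The summed level of 9 genes of the response to nerve injury was 136 to 3745 CPM (median 797) with *Calcb* and 102 to 2433 CPM (median 402) without. *Scn10a* and *Mrgprd* were thus at 0 with and without *Calcb*, *Pvalb* was lower and the injury genes higher at the median with *Calcb*, and the ranges overlapped. Whether the injury genes bear on *Calcb* was not tested.

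*Calca*, the gene for alpha-CGRP and calcitonin, was near the floor in kept neurons at every stage. It had 0 UMIs at e14.5, 4 at p0, 5 at p12 and 19 in the adult. Of the 17 adult neurons with it, 16 had 1 UMI. Adult plate 5 had 15.8 CPM against 0.645 to 0.889 CPM on the other adult plates. On that plate the wells left out of the annotation held 804 of the 808 *Calca* UMIs that left-out adult wells had, and a well of 292 UMIs was among them. Wells of 1 plate are sequenced together, and whether UMIs passed between wells was not tested.

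*Npy*, for neuropeptide Y, and *Vip*, for vasoactive intestinal peptide, are known as peptides that injured sensory neurons switch on. *Npy* had a UMI in 3 of 169 neurons at e14.5, in 0 of 55 at p0, in 0 of 154 at p12 and in 2 of 208 in the adult. Counts of 0 allow up to 5.45% and 1.95% of neurons with a UMI, which is no limit on expression. All 10 *Npy* UMIs at e14.5 were in cluster 2, and 6 of them in 1 neuron. *Vip* had 0 UMIs at e14.5, 10 at p0 in 3 neurons of cluster 1 (8 in 1 neuron), 6 at p12 and 1 in the adult. *Npy* and *Vip* were thus found in few neurons at all stages, and the depth does not allow a comparison between stages.

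**Figure D3:**
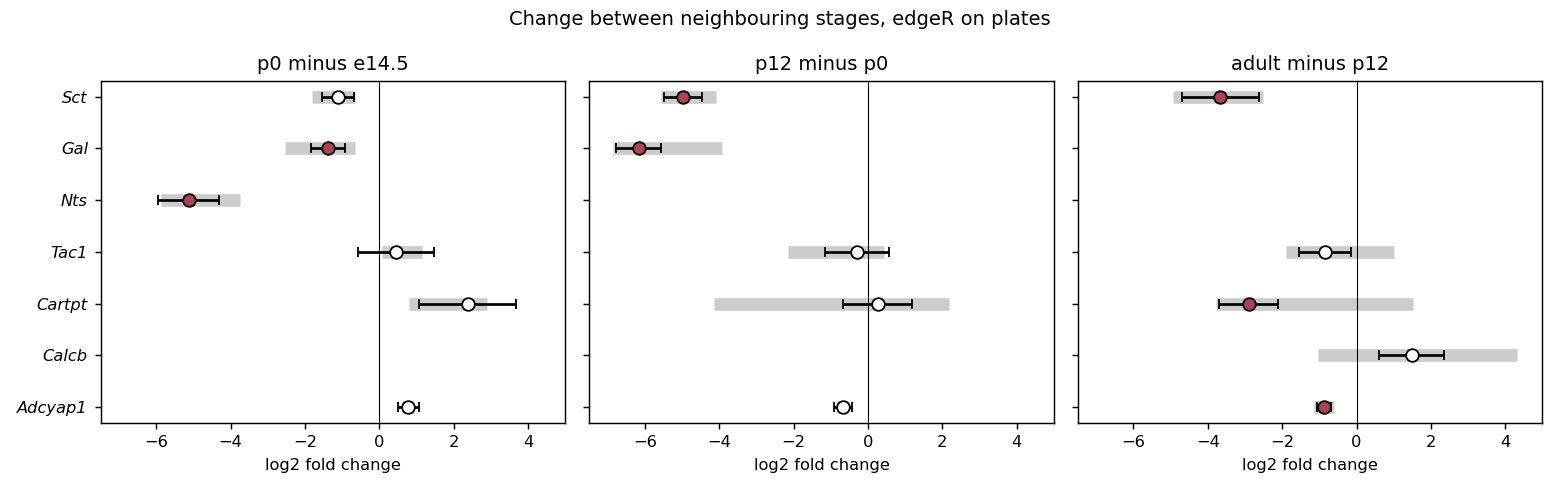
Change of each tested gene between neighbouring stages: points are log2 fold changes with their SE, red points passed the test and the grey bar spans the alternatives. Genes with fewer than 20 UMIs in a stage and no call are not drawn. *Gal* and *Sct* lie near −6 and −5 from p0 to p12 with grey bars that stay below −3, and the bars of *Tac1* and *Cartpt* from p0 to p12 cross 0.

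Peptide genes were also counted together in single neurons. The mean number of the 10 genes with a UMI was 2.17 ± 0.34 at e14.5 (SD, n = 2 plates), 3.00 at p0, 1.66 ± 0.13 at p12 (n = 4) and 1.47 ± 0.62 in the adult (n = 5). With all neurons thinned to 7000 UMIs it was 1.80, 1.40, 0.68 and 0.57 per neuron, so e14.5 came above p0 at equal depth. In the adult 24.0% of the neurons had none of the 10, and 58.7% after thinning. At e14.5 these values were 5.33% and 9.27%.

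**Figure D4:**
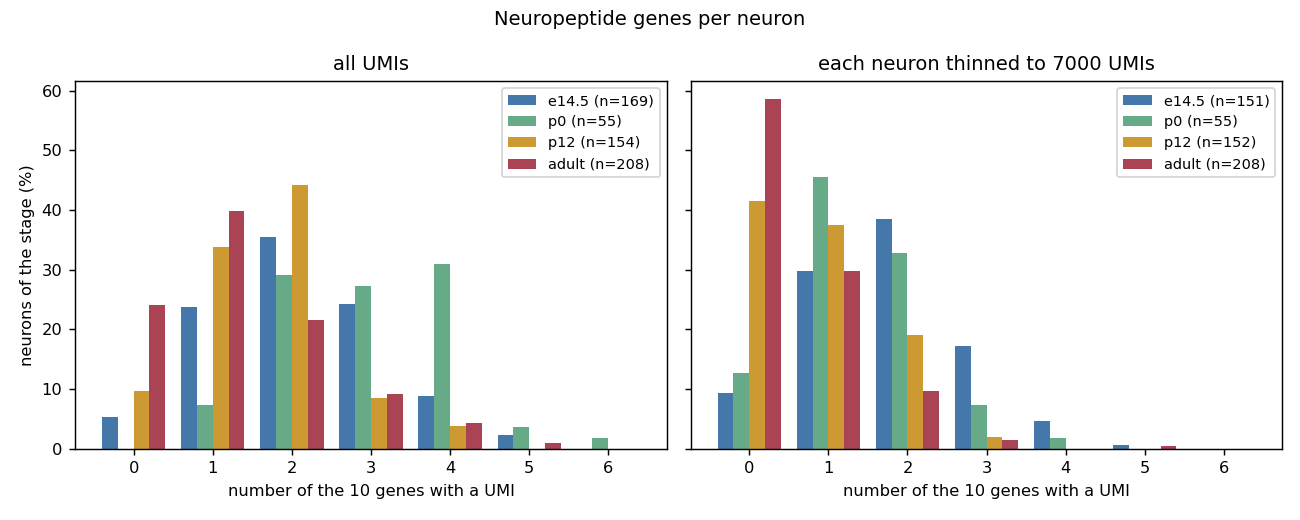
Percent of the neurons of each stage by the number of the 10 genes with a UMI, with all UMIs and after each neuron was thinned to 7000 UMIs. Neurons with none make up 24.0% of the adult at full depth and 58.7% after thinning, against 5.33% and 9.27% at e14.5.

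Among adult pairs found together in at least 10 neurons, *Tac1* with *Cartpt* had the highest ratio to the product of its single shares. These numbers are a description, without a test, and neurons share a plate and a depth. Of 208 adult neurons 15 had both, where 9.06 would follow from the shares within each plate, and 11.4 from those within each plate and cluster. With at least 2 UMIs of each gene required, 10 neurons had both against 2.10, and after thinning 6 against 1.40. The count was above the product on adult plates 1 to 4 (5 against 2.69, 4 against 1.66, 4 against 1.95 and 1 against 0.750) and below it on plate 5 (1 against 2.00). All 9 *Cartpt* neurons of adult cluster 4 and all 4 among the excluded neurons also had *Tac1*, as did 2 of 9 in cluster 3, 0 of 3 in cluster 1 and 0 of 2 in cluster 5. Neurons with mRNA of both genes were thus mainly in cluster 4 and the excluded neurons. *Tac1* with *Adcyap1* was in 44 neurons against 35.7 (39.2 within plate and cluster), in 18 against 10.9 with at least 2 UMIs of each and in 14 against 8.84 after thinning. *Tac1* with *Calcb* was in 15 against 13.4 and *Calcb* with *Adcyap1* in 21 against 19.6, nearer to the product.

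At e14.5, *Sct* and *Gal* were in the same neuron 49 times against 48.4, and *Tac1* and *Gal* 33 times against 35.7, but 18 times against 11.9 with at least 2 UMIs of each. *Sct* and *Nts* were together in 15 neurons against 18.8, and in 7 against 12.3 after thinning. At p0, *Tac1* and *Adcyap1* were together in 38 neurons against 36.6, and at p12 in 64 against 62.2. At e14.5, *Tac1* with *Cartpt* was in 8 neurons against 5.17, *Cartpt* with *Sct* in 10 against 6.87 and *Cartpt* with *Gal* in 7 against 7.46. *Tac1* with *Nts* was in 18 neurons against 13.7, or against 16.4 from the shares within plate and cluster. At p0, *Sct* with *Calcb* was in 6 neurons against 3.56.

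**Figure D5:**
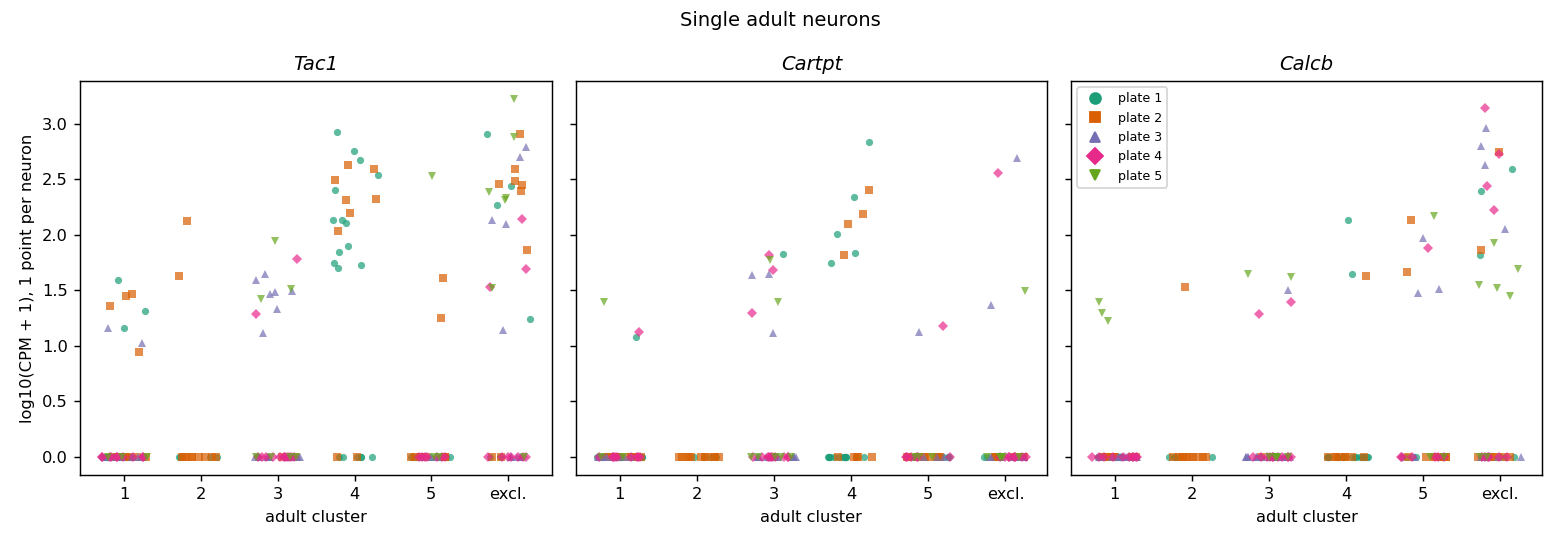
Level of *Tac1*, *Cartpt* and *Calcb* in each adult neuron (points, coloured by plate) as log10 of CPM plus 1, by cluster, the excluded neurons included. *Cartpt* had a UMI in 9 neurons of cluster 3 and 9 of cluster 4, and its highest level was in cluster 4. *Tac1* neurons stand mainly in cluster 4 and the excluded neurons. *Calcb* is highest in the excluded neurons, with up to 83 UMIs in 1 neuron.

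For the 4 genes with a UMI in at least 20 adult neurons, the genes of most similar pattern were taken by Pearson's r of log10(CPM + 1) over the 208 adult neurons, with each plate's mean removed, among 14433 genes. The neurons share depth, and *Tac1* neurons were shallower than the others (median 27861 UMIs against 49443). For *Tac1* the first 5 were *Cbln2* (0.51), *Sncg* (0.50), *Tmsb10* (0.47), *Cox6c* (0.46) and *Aldoa* (0.46). *Cbln2* encodes a secreted synaptic organizer and *Sncg* a synuclein, and the last 2 are genes of energy metabolism. For *Cartpt* they were *Tac1* (0.30), *Plppr3* (0.28), *Zwint* (0.27), *Kcnj4* (0.26) and *Rpgrip1* (0.25). For *Calcb* they were *Rprm* (0.54), the acid-sensing channel gene *Asic3* (0.54), *Ccdc172* (0.52), *Tusc5* (0.51) and *Nptx1* (0.47). *Rprm* was found in 21 and *Asic3* also in 21 of the 37 *Calcb* neurons, and each in 40 of 208 adult neurons. For *Adcyap1* they were *Sema4d* (0.40), *Cbln2* (0.34), *Aldoa* (0.34), *Pappa* (0.33) and *Ywhah* (0.33). *Cbln2* and *Aldoa* stood in the lists of both *Tac1* and *Adcyap1*.

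Of 15 genes for processing enzymes and dense-core vesicle proteins 14 were tested. From e14.5 to p0, 4 rose (14.7% of all tested genes did), among them the granin genes *Scg2* (2.19), *Chgb* (1.95) and *Chga* (1.72), and the vesicular monoamine transporter gene *Slc18a2* fell (−1.74). From p0 to p12, 4 rose (9.1% of all did), with *Scg2* (1.15), *Chga* (0.80) and *Cadps* (0.79), the gene for a priming factor of dense-core vesicles, the 3 largest. From p12 to adult, 2 rose (7.57% of all did), the prohormone convertase gene *Pcsk1* (1.05) and *Scg3* (0.87). The median change of the list was 0.30, 0.47 and 0.06 in that order, against 0.01, 0.02 and 0.04 over all tested genes.

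Of 20 genes for receptors of these peptides 5 were tested. *Ramp1*, for a partner protein of the CGRP receptor, rose from e14.5 to p0 and fell from p12 to adult. Its levels were 1.03, 18.2, 25.2 and 1.99 CPM from e14.5 to adult, and at e14.5 it had a UMI in 2 of 169 neurons. The receptor gene *Calcrl* of the same list had a UMI in 6 of 169 e14.5, 3 of 55 p0 and 1 of 154 p12 neurons. The level of *Ramp1* alone thus does not show a receptor. *Ramp3*, for a related partner, fell from p0 to p12, with 33.7, 11.97, 0.52 and 0.93 CPM in the same order. The median change of the 5 was 0.40 from p0 to p12 and −0.18 from p12 to adult, and none is given from e14.5 to p0, where some of the 5 had few or no UMIs. The summed level of 19 of these 20 genes, the other being not analysed here, was 75.1 CPM at e14.5, 71.6 at p0, 56.5 at p12 and 28.3 in the adult. Of 30 other peptide precursor genes 2 were tested, and *Pthlh*, for parathyroid hormone-related protein, rose from p12 to adult (2.61), where the median of the pair was 1.41. It had a UMI in 0 of 55 p0 and 0 of 169 e14.5 neurons, so no earlier change is given. The summed level of these 30 genes was 30.7, 17.2, 14.46 and 24.4 CPM from e14.5 to adult.

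Satellite glia wrap each DRG neuron, and their genes were followed as a check on the wells. In the kept adult and p12 neurons the summed level of 12 satellite and Schwann cell genes was 508 and 426 CPM, against 9645 and 8003 CPM in the wells left out. It was 35.6 CPM at e14.5 and 587 CPM at p0. In p0 cluster 3, of 8 neurons, it reached 3287 CPM, against 118 and 120.5 CPM in clusters 1 and 2, and *Tac1* there was at 318 and 75.8 CPM. Its part in the level of *Tac1* was not tested.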

How the data were processed

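Single tdTomato-positive DRG neurons were sorted into 13 plates and sequenced by Plate-seq. The authors aligned the reads with STAR to mm10/GRCm38 (tool and builds as listed in the submitters' processing notes) and deposited UMI counts per gene and well, which are raw counts and not normalized. How reads that match more than 1 gene were counted is not given in the sources used here. The deposited annotation names the wells that passed the authors' quality control and their clusters. Per their methods it leaves out wells with satellite cell genes (Mbp and Apoe among them), so levels of those genes in kept neurons are limited by that choice. Wells outside it entered only where stated.

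UMIs were summed per plate over kept neurons and tested with edgeR 4.0.16 in R 4.3.3 (TMM scaling, filterByExpr by stage, quasi-likelihood F-test, all 13 plates in 1 fit, Benjamini-Hochberg over all tested genes, called at an adjusted p under 0.05). SE is the absolute log2 fold change divided by the square root of F. A fitted change of an uncalled gene is given only with at least 20 UMIs in both stages. Plates were numbered in accession order within a stage. Intervals of shares are exact Clopper-Pearson and those of ratios exact conditional binomial, at 95%, and cover counting error only. A count of 0 was taken to allow 3 counts. The code was tested on simulated data. Alternatives were DESeq2 1.42.0, edgeR with the size factors of DESeq2, no low-count filter, neurons thinned to 7000 UMIs, all wells with at least 2000 genes, numbered adult clusters, e14.5 clusters 1 and 2, only the plates compared, and each plate left out. Sequences came from the GRCm38 genome and RefSeq windows.

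The genes, lists and tests were chosen with earlier results of these data known. All 10 genes are named. Of each other list, up to 3 called genes per direction and contrast with the largest change are named. Genes of similar pattern are the 5 with the highest r for each member with a UMI in at least 20 adult neurons, among genes with one in at least 10, predicted genes skipped.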

Additional observations from a re-analysis of the deposited data

Results flagged for a closer look

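The mean Calcb level of p12 plate 1, 57.9 CPM, stood apart from the other p12 plates, which were at 3.01 CPM or less. The share of neurons with a Calcb UMI on adult plate 5, 55.0%, stood apart from the other adult plates, at 9.62% to 18.6%. These 2 came from 16 groups of plates examined with Dixon's criterion, of which chance gives about 1 in 20.

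Wells outside the annotation held UMIs that kept neurons had few of. In the adult they held 69 Nts UMIs against 6 in kept neurons, and 808 Calca UMIs against 19. At p12 they held 11 Npy UMIs against 0, 109 Gal UMIs against 6, and 968 Calca UMIs against 5. At p0 they held 165 Calca UMIs against 4. What cells those wells contain was not tested.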

How the results depend on the processing

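The numbers of these genes called were 3 (p12 to adult), 2 (p0 to p12) and 2 (e14.5 to p0). For p12 to adult the number was 5 without the filter on low counts, 1 (Cartpt) with thinned neurons, and 0 to 4 with 1 plate left out, with 0 called without p12 plate 3 (2 at an unadjusted p under 0.05 by edgeR). With sets of plates chosen after seeing the data it was 0 for p12 plates 1 and 2 only, 0 for adult plates 1 and 2 only (2 unadjusted in each), 1 (Adcyap1) for adult plates 3 to 5 only and 4 (Cartpt, Sct and Adcyap1 lower, Calcb higher) for p12 plates 3 and 4 only. For p0 to p12 it was 2 to 3 with 1 plate left out and 4 for p12 plates 1 and 2 only. For e14.5 to p0 it was 1 with DESeq2, 7 without the filter, 1 with e14.5 clusters 1 and 2, 5 with only the plates of those stages, and 1 to 2 with 1 plate left out. The share of all tested genes called under each alternative is not given here, so these numbers cannot be set against it. The cause of these changes in number was not tested.

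Changes of direction were limited to uncalled values and to Cartpt. From p12 to adult, Calcb was −1.05 with numbered adult clusters, and with p12 plates 1 and 2 only Tac1 was 1.01 and Cartpt 1.51. From p0 to p12, Tac1 was 0.21 with thinned neurons, −0.76 to 0.066 with 1 plate left out (0.056 without p0 plate 1, 0.066 without p12 plate 2) and 0.44 with p12 plates 3 and 4 only. Cartpt was −1.43 to 0.95 with 1 plate left out (−1.43 without p12 plate 3, −0.24 without p0 plate 1) and −4.15 with p12 plates 1 and 2 only, which passed the test (adjusted p = 0.00144). Of the fitted changes under an alternative, 180 kept direction and call, 18 gained a call, 26 lost it and 10 turned sign. Shares taken over all neurons as 1 pool moved by less than 1 SD between plates in 40 of 40 cases, with at least 2 UMIs in 20 and with thinned neurons in 23. No paired analysis was possible because plates of different stages share no number in the labels. With 2 plates at p0 and at e14.5, and single UMIs behind many detections, absence at these depths could not be shown.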
